A study of Mus musculus with 24 samples.

Results

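Transcripts of 10 proteins of the extracellular matrix other than collagens were followed in the quadriceps femoris muscle of mice. They encode fibronectin (Fn1), tenascin-C (Tnc), thrombospondin-1 (Thbs1), periostin (Postn), osteonectin (Sparc), decorin (Dcn), biglycan (Bgn), lumican (Lum), elastin (Eln) and nidogen-2 (Nid2). The genes were taken by symbol from the table of raw read counts, which lists 18669 genes. All 10 were found there, and all 10 are among the 13754 genes that passed the filter on low counts and were tested.

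RNA was sequenced from 24 mice in 12 groups of 2 mice, and the tissue was collected 4 h after treatment. Wild type mice, R6/2 mice, a model of Huntington's disease, and Hsf1-/- mice, which lack heat shock factor 1, each received HS, the control treatment for HS, HSP990 or its vehicle. The questions were how muscle responds to heat and to inhibition of HSP90, and how the disease transgene or the loss of Hsf1 alters these responses. All mice had a CBA x C57BL/6 F1 background. Wild type and R6/2 mice were 12 weeks old, and Hsf1-/- mice were 10 weeks old in the HS experiment and 8 weeks old in the HSP990 experiment, so that age and genotype cannot be told apart for the knockout. For HS, anaesthetised mice were held at 41.5 °C for 15 min on a heating pad, and control mice were held at 36.9 °C for 21 min. HSP990, a small molecule inhibitor of HSP90, was given by mouth at 12 mg/kg. R6/2 mice carry exon 1 of the human huntingtin gene with an expanded CAG repeat, and Hsf1-/- mice lack the factor in every cell, so that neither model is limited to muscle.

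Muscle fibres sit in a connective tissue that is made mainly by resident fibroblasts. Fibronectin forms a scaffold on which other matrix proteins assemble, the matricellular proteins tenascin-C, thrombospondin-1, periostin and osteonectin modulate how cells attach to it, and small leucine-rich proteoglycans such as decorin, biglycan and lumican bind collagen fibrils. Elastin is the core of elastic fibres in vessels and the muscle sheath, and nidogen-2 links laminin and collagen networks of the basement membrane around fibres and capillaries. In whole tissue RNA, fewer cells of a type and less RNA per cell cannot be told apart.

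The libraries held 22450177 to 46599238 counts. Hsf1 reads were lower in the 8 Hsf1-/- mice, at 21.1 to 29.0 CPM (reads of a gene relative to the library total, scaled with TMM), than in the 8 wild type mice, at 52.9 to 68.5 CPM, and the 8 R6/2 mice, at 45.3 to 53.7 CPM, though which exons the knockout lacks is not given in the sources used here. Hspa1a, the inducible HSP70 and a classical HSF1 target, reached 961 to 1063 CPM after HS and 2776 to 2950 CPM after HSP990 in wild type mice, and at most 9.15 CPM in any Hsf1-/- mouse. All 10 skeletal muscle fibre markers were detected, and their summed level was 260312 to 319733 CPM in wild type mice and 60969 to 117879 CPM in R6/2 mice. Counts of 4 Y-linked genes summed to 0 in the wild type control and HS mice and to 3923 to 4870 in the wild type vehicle and HSP990 mice. In R6/2 mice the same sum was 0 to 4 in the HS experiment and 6702 to 9392 in the HSP990 experiment, so that the experiment and the sex of the mice cannot be told apart in these genotypes, whereas all Hsf1-/- mice had 3916 counts or more. Wild type and Hsf1-/- mice of the HS experiment therefore also differ in these reads, while all wild type and Hsf1-/- mice of the HSP990 experiment held such reads.

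Per length, decorin and osteonectin were the most abundant of the 10 transcripts. The mean level over all 24 mice was 194 CPM per kb of exon for Dcn and 181 for Sparc. Lum followed at 29.1, Bgn at 21.1, Fn1 at 11.5, Eln at 10.9 and Nid2 at 5.19 CPM per kb. Thbs1 (3.02), Postn (2.81) and Tnc (1.34 CPM per kb) were the least abundant. The fewest reads behind any value were 142, for Tnc, so that none of the 10 genes was near the limit of detection. The mice of a group often differed: the higher mouse exceeded the lower by a median factor of 1.11 to 1.56 over the 10 genes, and by up to 3.17 for Postn in R6/2 mice given HSP990. In the R6/2 HS group 9 of the 10 transcripts were higher in replicate 1 than in replicate 2.

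**Figure D1:**
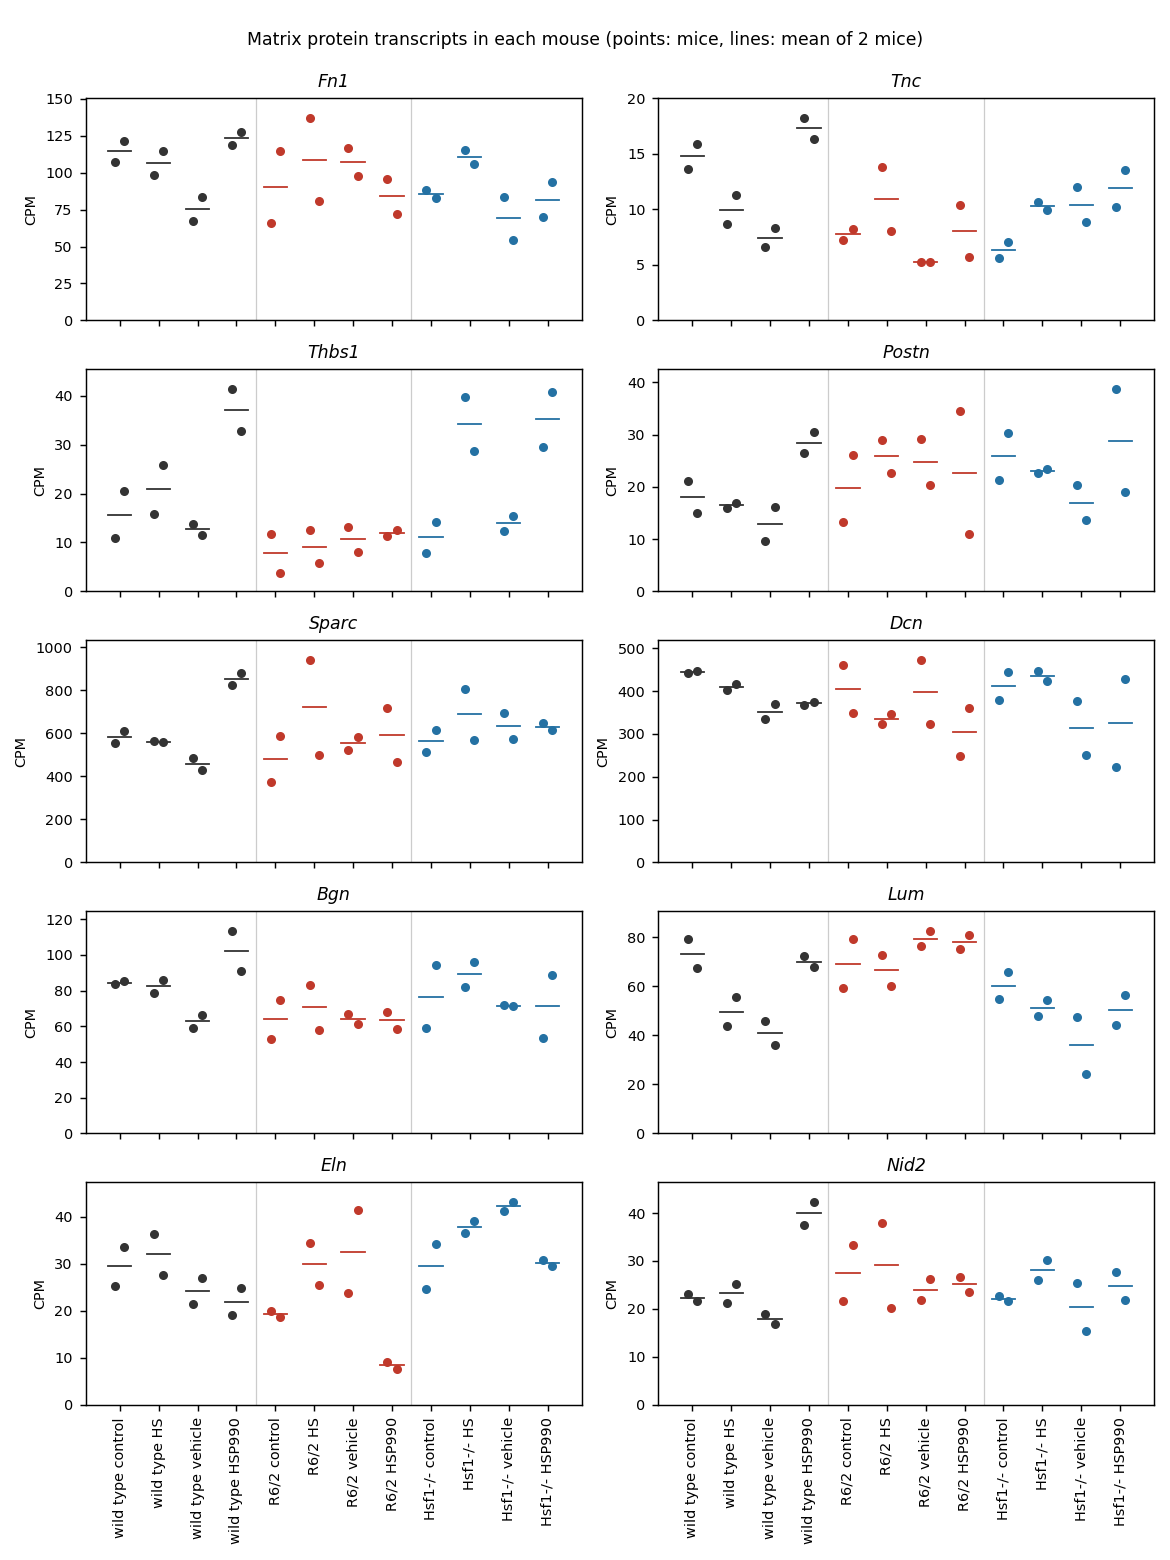
Level of each transcript in CPM (vertical axis, from 0) in each of the 24 mice, by group (horizontal axis), with wild type mice in black, R6/2 mice in red and Hsf1-/- mice in blue. Points are mice and lines are means of 2 mice. Wild type HSP990 mice hold the highest mean for Tnc, Thbs1, Sparc, Fn1, Bgn and Nid2, and the R6/2 HSP990 mice the lowest for Eln.

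The genes lie on 9 chromosomes of the mm9 build. Dcn (chr10:96942245-96980777, plus strand) and Lum (chr10:97028135-97035337, plus strand) are neighbours, with 47357 bases between them. Tnc (chr4:63620819-63681760, minus strand) overlaps a non-coding RNA gene on the other strand, 8030451A03Rik, by 40873 bases, and Nid2 (chr14:20570479-20631009, plus strand) overlaps the end of Rtraf on the other strand by 386 bases. Fn1 (chr1:71632094-71699774, minus strand) overlaps Apol7d on the other strand by 364 bases. Eln spans chr5:135179651-135223111 on the minus strand. The libraries kept the strand, but whether the counting used it is not given in the sources used here, so reads of Tnc, Nid2 and Fn1 and of their antisense partners may not be separated. Rtraf itself differed by -0.13 on the log2 scale between wild type HSP990 and vehicle mice (adjusted p = 0.85).

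Start site sequences from RefSeq (GRCm38.p6) were at hand for 4 of the 10 genes, Tnc, Sparc, Postn and Bgn, in 6 windows of 250 bases before and 50 bases after a start. They were searched on both strands for the heat shock element cores GAANNTTC and TTCNNGAA, because the study concerns HSF1. The search also covered the AP-1 motif, written TGANTCA, the TATA box motif, written TATAAA, a motif of the type that SMAD proteins of the TGF-beta pathway bind, written CAGACA, and a motif of the TEAD type, written GGAATG. No matches of different motifs overlapped in these windows. Neither heat shock element core, nor TGANTCA or GGAATG, was found in any of the 6 windows, while 7.86%, 8.52%, 7.81% and 14.7% of the 32851 windows of all genes hold them. TATAAA lies in windows of Tnc and Postn (13.6% of all windows hold it), and CAGACA in windows of Tnc and Sparc (21.0%). The 150 bases before the start are shown for Tnc, which rose after HSP990, at chr4:64047016-64047165 on the minus strand, for Sparc, the matricellular gene with the most reads, at chr11:55420081-55420230 on the minus strand, and for Postn at chr3:54360957-54361106 on the plus strand. Capitals mark TATAAA in Tnc and Postn and CAGACA, read on the other strand, in Sparc.
Tnc: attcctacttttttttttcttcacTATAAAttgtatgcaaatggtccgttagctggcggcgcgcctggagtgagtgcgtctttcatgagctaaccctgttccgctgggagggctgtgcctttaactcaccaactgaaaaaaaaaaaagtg
Sparc: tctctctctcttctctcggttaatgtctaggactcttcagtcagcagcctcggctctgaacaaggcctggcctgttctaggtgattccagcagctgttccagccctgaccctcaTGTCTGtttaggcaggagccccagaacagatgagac
Postn: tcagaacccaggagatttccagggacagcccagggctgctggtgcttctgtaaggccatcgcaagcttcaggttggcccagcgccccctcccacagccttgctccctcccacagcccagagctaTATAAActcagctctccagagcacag
The TATAAA of Postn begins 26 bases before the start shown here, and none was found in the window of its other start. That of Tnc begins 126 bases before the start shown here and 205 bases before its other start.

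HSP990 raised Tnc and Nid2 in wild type mice, and 8 of the 10 transcripts were higher in both HSP990-treated mice than in both vehicle mice. The called changes were 2.32-fold for Tnc and 2.24-fold for Nid2. Dcn and Eln were the exceptions, with levels that overlapped. Calls were made with edgeR's quasi-likelihood test in a fit of all 12 groups, at a Benjamini-Hochberg adjusted p below 0.05 over 13754 genes. By that rule 2 of 10 transcripts were called higher and 0 lower, beside 1.45% of all genes tested called higher and 0.407% called lower. At an unadjusted p below 0.05, 8 of the 10 were higher, beside 8.70% of all genes. The mice of the groups did not overlap for 8 of the 10, all higher, beside 24.3% of all genes. The 10 genes were chosen with earlier results of these data known, so they are not an independent list to set against these shares. The median log2 fold change was 0.84 over the 10 transcripts and -0.0011 over all genes tested.

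Among the glycoproteins and matricellular proteins, Tnc, which is induced where matrix is remodelled, was at 6.58 and 8.34 CPM in the vehicle mice and at 18.2 and 16.4 CPM in the HSP990 mice. The groups were far apart, and both treated mice held more than any other mouse in the study. The log2 fold change was 1.21 ± 0.28 (SE; 95% confidence interval 0.61 to 1.81; adjusted p = 0.040). Thbs1, which binds cell surface receptors and can activate latent TGF-beta, was at 13.9 and 11.5 CPM with vehicle and at 41.3 and 32.8 CPM with HSP990. Its estimated difference was the largest of the 10, at 1.55 ± 0.47, but with a wide interval (0.56 to 2.54) it did not pass the test (adjusted p = 0.11). Sparc, a collagen-binding protein, was at 487 and 428 CPM with vehicle and at 825 and 882 CPM with HSP990. Here too the groups were well separated, and the difference of 0.90 ± 0.27 was not called (adjusted p = 0.10).

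Postn, a protein of fascia and tendon, was at 9.64 and 16.2 CPM with vehicle and at 26.5 and 30.4 CPM with HSP990. The vehicle mice differed from each other by a factor of 1.68, and the log2 difference of 1.14 ± 0.46 was not called (adjusted p = 0.27). Fn1 was at 67.3 and 83.7 CPM with vehicle and at 119 and 128 CPM with HSP990. The Fn1 groups did not overlap, with a log2 difference of 0.71 ± 0.27 (adjusted p = 0.25).

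The 3 small leucine-rich proteoglycans differed among themselves. Lum, which regulates the thickness of collagen fibrils, was at 45.8 and 35.9 CPM with vehicle and at 72.2 and 67.8 CPM with HSP990, a log2 difference of 0.78 ± 0.24 (adjusted p = 0.12). Bgn was at 59.0 and 66.4 CPM with vehicle and at 113 and 91.1 CPM with HSP990, a difference of 0.70 ± 0.24 (adjusted p = 0.19). Both were higher in each treated mouse, without a call. Dcn, the neighbour of Lum on chromosome 10, was at 335 and 369 CPM with vehicle and at 368 and 374 CPM with HSP990. For Dcn the mice overlapped, and the interval of the difference ran from -0.47 to 0.62.

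In the basement membrane, Nid2 was at 18.8 and 16.9 CPM with vehicle and at 37.6 and 42.2 CPM with HSP990. No other mouse in the study but 1 R6/2 HS mouse, at 37.9 CPM, reached these levels. Its log2 fold change was 1.16 ± 0.27 (interval 0.59 to 1.73; adjusted p = 0.039). Eln was at 21.4 and 26.9 CPM with vehicle and at 19.1 and 24.9 CPM with HSP990, and these mice overlapped. With 2 mice per group, an exact permutation test of a single gene cannot give a two-sided p below 0.333, so the calls rest on the spread shared over the 24 libraries. Leaving out any 1 of the 4 mice compared left 0 of the 10 transcripts called, although the estimates stayed at 1.05 to 1.39 for Tnc and 1.07 to 1.24 for Nid2. DESeq2 called 5, all higher, beside 399 of all 13754 genes called higher and 143 called lower by DESeq2. A fit with a replicate block called Nid2 alone (Tnc adjusted p = 0.051).

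The wild type vehicle mice themselves were low. All 10 transcripts had a lower mean in the vehicle mice than in the wild type control mice of the HS experiment, at 0.505 to 0.822 times the control mean (median 0.764). For 7 of the 10 the mice of the groups did not overlap, beside 27.9% of all genes that were lower without overlap. In this comparison, which was added after the values had been seen, edgeR's test called 0 of the 10, beside 0.0364% of all genes called lower, and 3 were lower at an unadjusted p below 0.05, beside 7.20% of all genes. Tnc was lower by -0.98 ± 0.28 on the log2 scale (adjusted p = 0.16), from 13.6 and 15.9 CPM in the control mice. Lum was lower by -0.84 ± 0.24 (adjusted p = 0.15), from 79.2 and 67.4 CPM. Summed fibroblast markers were also lower in the vehicle mice (217 to 228 CPM) than in the control mice (294 to 308 CPM). So were tenocyte (36.8 to 43.6 against 75.1 to 104 CPM) and macrophage and leukocyte markers (54.3 to 54.9 against 72.9 to 92.1 CPM). Smooth muscle and pericyte and skeletal muscle fibre sums were higher without overlap, and the other sums overlapped. The part of these cells was not tested.

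The level after HSP990 therefore reads differently against each untreated group. Lum in the HSP990 mice (72.2 and 67.8 CPM) lay within the range of the control mice, and Fn1 (119 and 128 CPM) overlapped with the control mice (107 and 122 CPM). Nid2, Sparc, Thbs1, Postn, Bgn and Tnc were higher in both HSP990 mice than in both control mice of the HS experiment, 6 of 10 beside 26.2% of all genes. Dcn (368 and 374 against 443 and 447 CPM) and Eln (19.1 and 24.9 against 25.2 and 33.7 CPM) were lower without overlap, 2 of 10 beside 26.6% of all genes. The mean of Tnc after HSP990 was 1.17 times the control mean, and that of Nid2 was 1.79 times. Control and vehicle mice differ in experiment, anaesthesia, heating pad, gavage and reads from Y-linked genes, which cannot be told apart.

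**Figure D2:**
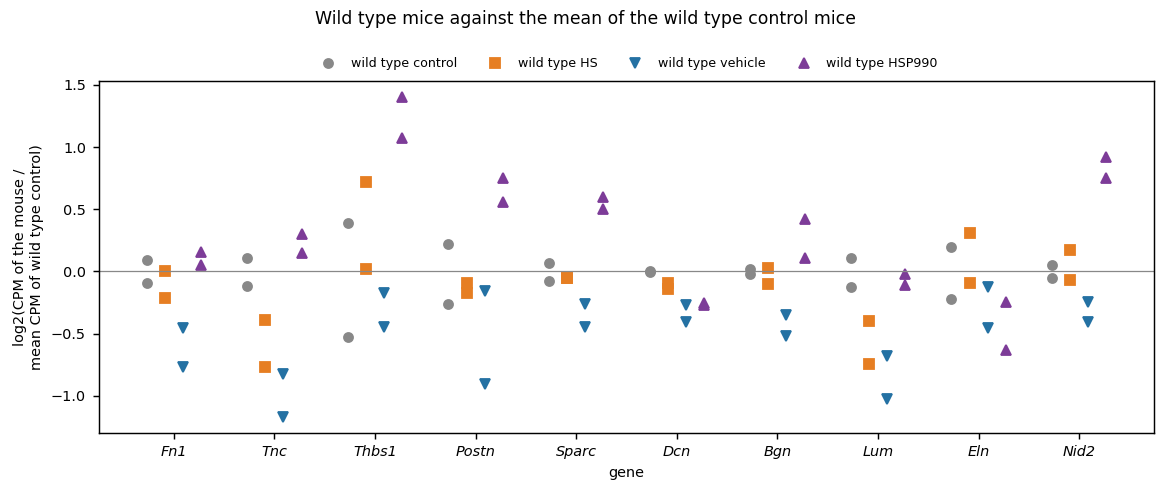
Log2 ratio of the CPM of each wild type mouse to the mean of the 2 wild type control mice (vertical axis) for the 10 genes (horizontal axis), with control mice as circles, HS mice as squares, vehicle mice as inverted triangles and HSP990 mice as triangles. All vehicle means lie below 0, with ratios of group means of 0.505 to 0.822, and the HSP990 means lie between 0.746 (Eln) and 2.37 (Thbs1) times the control mean.

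Most other genes of the matrix had estimates above 0 with HSP990 in wild type mice, with few calls. Over all genes tested, 13.2% were at an unadjusted p below 0.05 in either direction. Of 11 other basement membrane genes tested, 10 were higher and 1 was called, and the median log2 fold change was 0.50 beside -0.0011 over all genes tested. The called gene was Lamc1, which encodes the gamma-1 chain of most laminins, with 202 and 176 CPM in the vehicle mice and 288 and 311 CPM in the HSP990 mice (log2 fold change 0.67 ± 0.16, adjusted p = 0.040). Of 16 other elastic fibre genes 14 were higher and 0 were called (median 0.16; 2 at an unadjusted p below 0.05), and of 20 other glycoprotein and matricellular genes 16 were higher and 0 were called (median 0.29; 3 at an unadjusted p below 0.05). The 9 other small leucine-rich proteoglycan genes were split, with 5 higher and 4 lower and 0 called (median 0.23; 3 at an unadjusted p below 0.05). Of 21 genes of matrix receptors such as integrins and syndecans, 16 were higher and 0 were called (median 0.25; 8 at an unadjusted p below 0.05). Among 13 genes of TGF-beta signalling, a pathway that drives matrix synthesis, 7 were higher and Tgfb2, a ligand, was called, from 37.4 and 27.6 CPM to 62.5 and 64.4 CPM (0.97 ± 0.15, adjusted p = 0.0014; list median 0.06).

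Summed markers of fibroblasts, vessels and immune cells had higher levels in the HSP990 mice than in the vehicle mice, but only 2 single markers, both of macrophages, were called, beside 1.85% of all genes. The summed level of 9 fibroblast markers was 217 to 228 CPM in the vehicle mice and 271 to 328 CPM in the HSP990 mice, with 8 of 9 higher and 0 called. For 8 endothelial markers the sums were 406 to 498 and 603 to 700 CPM, with 6 of 8 higher and 0 called. For 8 macrophage and leukocyte markers they were 54.3 to 54.9 and 82.9 to 116 CPM, with 7 of 8 higher, and Lyz2 (log2 fold change 1.07 ± 0.24, adjusted p = 0.034) and Mrc1 (1.25 ± 0.29, adjusted p = 0.039) were called. For 8 smooth muscle and pericyte markers they were 359 to 362 and 413 to 460 CPM, with 7 of 8 higher and 0 called. Tenocyte markers, 5 in all, summed to 36.8 to 43.6 and 50.5 to 59.3 CPM, with 2 of 5 higher and 0 called. Skeletal muscle fibre markers summed to 285094 to 293607 and 260312 to 284185 CPM, with 8 of 10 lower and 0 called. The sums of 2 Schwann cell markers were 70.9 to 74.4 and 88.8 to 96.7 CPM, and those of adipocyte, satellite cell and red blood cell markers overlapped between the groups, with 0 called. None of the markers tested in these lists was under 1 CPM in every mouse. Their part in the rise of Tnc and Nid2 was not tested.

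HSP990 lowered Eln in R6/2 mice, the largest change of any of the 10 transcripts in a treatment comparison. Eln was at 23.7 and 41.4 CPM in the R6/2 vehicle mice and at 9.15 and 7.57 CPM in the R6/2 HSP990 mice. The vehicle mice differed from each other by a factor of 1.75, but both treated mice lay below every other mouse in the study. The log2 fold change was -1.96 ± 0.25 (interval -2.50 to -1.42; adjusted p = 0.00042), 3.89-fold lower. This was 1 of 10 transcripts called lower and 0 called higher, beside 0.960% and 0.473% of all genes tested. With any 1 of the 4 mice left out, the estimate stayed at -2.31 to -1.50. The call was lost when only these 4 libraries were fitted (edgeR adjusted p = 0.10). Against the R6/2 control mice of the HS experiment (19.9 and 18.6 CPM) the treated mice were also lower, by a smaller margin.

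None of the other 9 transcripts was called in these mice. Tnc was at 5.30 and 5.27 CPM with vehicle and at 10.4 and 5.71 CPM with HSP990, a difference carried mainly by 1 mouse (0.60 ± 0.28, adjusted p = 0.52). Nid2 (21.8 and 26.2 CPM with vehicle, 26.6 and 23.6 CPM with HSP990) and Lum (76.5 and 82.5, then 75.3 and 80.8 CPM) overlapped between the groups. The median log2 fold change of the 10 was -0.02, beside 0.01 over all genes tested. Among the other 16 elastic fibre genes 6 were higher, 10 were lower and 0 were called (median -0.18; 0 at an unadjusted p below 0.05), so that Eln was the only elastic fibre gene called among those tested in this comparison. Fibroblast markers summed to 265 to 296 CPM with vehicle and 234 to 246 CPM with HSP990, with 7 of 9 lower and Gfpt2 called, and macrophage and leukocyte markers to 73.3 to 105 and 59.9 to 65.4 CPM, with 6 of 8 lower and Cd163 called. Smooth muscle and pericyte markers, of cells that make elastin, summed to 329 to 348 and 339 to 396 CPM, with 4 of 8 lower. Endothelial markers stood the other way from Eln, at 402 to 407 CPM with vehicle and 421 to 609 CPM with HSP990, with 8 of 8 higher and 0 called (1 at an unadjusted p below 0.05). Skeletal muscle fibre markers summed to 60969 to 70424 CPM with vehicle and 69689 to 117879 CPM with HSP990, with 10 of 10 higher and 0 called (5 at an unadjusted p below 0.05). The part of these cell types in the fall of Eln was not tested.

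In Hsf1-/- mice HSP990 led to 0 calls among the 10 transcripts by edgeR's test and 0 by DESeq2, beside 0.218% of all genes tested called by edgeR, and 1 was at an unadjusted p below 0.05, beside 9.48%. That gene was Thbs1, at 12.3 and 15.4 CPM with vehicle and at 29.5 and 40.8 CPM with HSP990. The groups were apart, and the difference of 1.34 ± 0.47 (interval 0.35 to 2.32; adjusted p = 0.35) was close in size to that of wild type mice, which also failed the test. Tnc (12.0 and 8.84, then 10.3 and 13.6 CPM) and Nid2 (25.3 and 15.3, then 27.8 and 21.8 CPM) overlapped. Eln was lower in both treated mice, at 30.9 and 29.6 CPM against 41.3 and 43.1 CPM with vehicle, but the interval of the log2 difference included 0 (adjusted p = 0.58).

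**Figure D3:**
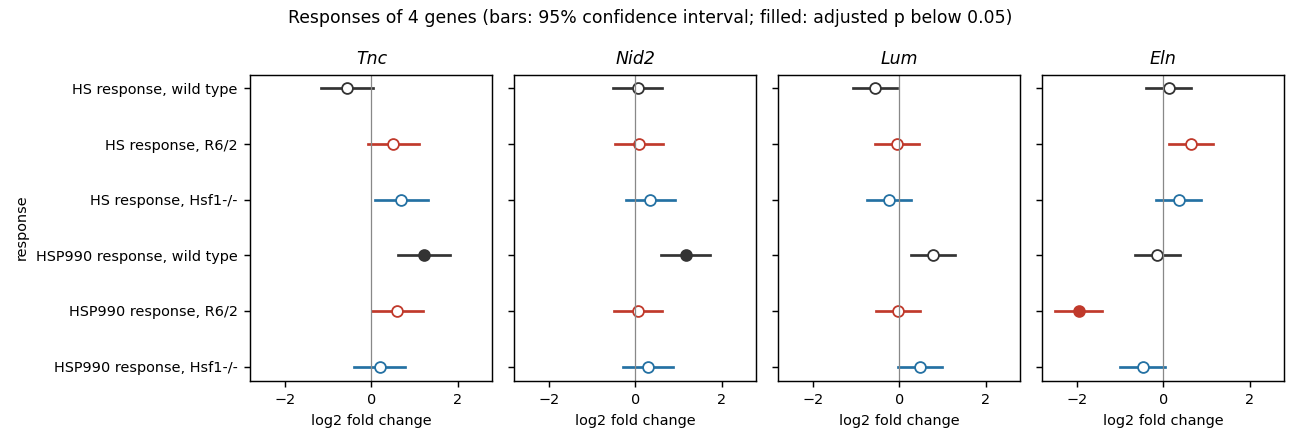
Log2 fold change (horizontal axis) of Tnc, Nid2, Lum and Eln in the 6 responses to treatment (vertical axis), with 95% confidence intervals as bars and colours for the genotypes as in the plot of levels by mouse. Filled points passed an adjusted p of 0.05: Tnc and Nid2 rose in wild type mice given HSP990, and Eln fell in R6/2 mice given HSP990.

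Whether the HSP990 response differed between genotypes was tested as an interaction. The estimates were lower in R6/2 than in wild type mice for all 10 transcripts (median -0.93, beside -0.0014 over all genes tested), and lower in Hsf1-/- mice for all 10 as well (median -0.42), but both tests reuse the same 4 wild type mice. Of the 10, edgeR's test called 0 in R6/2 against wild type mice, where 0% of all genes were called, and 0 in Hsf1-/- against wild type mice, beside 0.422% of all genes. At an unadjusted p below 0.05 there were 5 and 3, beside 7.13% and 6.89% of all genes. DESeq2 called 1 and 0 of the 10. Over all 13754 genes tested it called 7 and 36 higher and 42 and 82 lower. The largest estimate was that of Eln in R6/2 mice, -1.82 ± 0.35 (interval -2.57 to -1.08; edgeR adjusted p = 0.30), which DESeq2 called (adjusted p = 0.0018). Without replicate 1 of the R6/2 vehicle mice, the lower of the 2 for Eln (23.7 against 41.4 CPM), the estimate by edgeR was -2.17. For Nid2 the difference was -1.10 ± 0.38 in R6/2 and -0.87 ± 0.38 in Hsf1-/- mice (adjusted p = 0.53 and 0.69). For Tnc it was -1.02 ± 0.40 in Hsf1-/- mice (adjusted p = 0.59). A difference between genotypes was thus not shown for Tnc or Nid2.

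After HS, edgeR's test called none of the 10 transcripts in any genotype. In wild type mice 0 of 10 were called, beside 2.06% of all genes, in R6/2 mice 0 of 10, beside 0.0436%, and in Hsf1-/- mice 0 of 10, beside 0.00727%. At an unadjusted p below 0.05 there were 1, 2 and 2, beside 11.8%, 8.12% and 8.80% of all genes. DESeq2 called 0, 0 and 1 of the 10. Over all 13754 genes tested it called 375, 107 and 126 higher and 167, 20 and 35 lower. The median log2 difference was -0.08 in wild type, 0.25 in R6/2 and 0.32 in Hsf1-/- mice, beside -0.014, 0.0011 and 0.0025 over all genes tested.

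In wild type mice Lum was the transcript with the smallest p after HS, at 79.2 and 67.4 CPM in control and 43.9 and 55.5 CPM in HS mice. The groups were apart, with a difference of -0.56 ± 0.24 (adjusted p = 0.35). Tnc was also lower in both HS mice, at 8.69 and 11.3 CPM against 13.6 and 15.9 CPM, with an interval that included 0. Sparc (554 and 612, then 563 and 561 CPM), Bgn (83.4 and 85.4, then 78.6 and 86.0 CPM) and Nid2 (23.2 and 21.5, then 21.3 and 25.2 CPM) overlapped. Of the matrix receptor genes, Sdc4 was called, a syndecan that binds fibronectin, from 28.5 and 29.3 to 58.8 and 67.1 CPM (1.12 ± 0.25, adjusted p = 0.024). It was 1 of 21 matrix receptor genes, of which 13 were lower. Tenocyte markers summed to 75.1 to 104 CPM in control and 61.2 to 61.6 CPM in HS mice. Fibroblast sums overlapped, and of these markers Cd248 alone was called, lower by -1.35 ± 0.28 (adjusted p = 0.016), beside 2.06% of all genes. Endothelial, skeletal muscle fibre and red blood cell sums were higher without overlap, and the other sums overlapped. The part of these cells in the levels of Lum and Tnc was not tested.

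Thbs1 in Hsf1-/- mice showed the largest estimate after HS. It was at 7.84 and 14.2 CPM in control and at 39.8 and 28.7 CPM in HS mice, a difference of 1.64 ± 0.47 (interval 0.64 to 2.64; adjusted p = 0.20), called by DESeq2 (adjusted p = 0.029). In wild type mice Thbs1 was at 10.8 and 20.5 CPM in control and 15.9 and 25.8 CPM in HS mice, and these overlapped. Tnc in Hsf1-/- mice was at 5.65 and 7.09 CPM in control and at 10.7 and 9.93 CPM in HS mice, without overlap and without a call (0.69 ± 0.29, adjusted p = 0.47). In R6/2 mice Eln was at 19.9 and 18.6 CPM in control and at 34.5 and 25.4 CPM in HS mice (0.64 ± 0.24, adjusted p = 0.45). Sparc was at 375 and 590 CPM and at 940 and 502 CPM in these groups, where the mice overlapped (0.58 ± 0.26, adjusted p = 0.59).

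The HS response was not shown to differ between genotypes for any of the 10. Of these, edgeR and DESeq2 called 0 in R6/2 against wild type mice, beside 0.0727% of all genes by edgeR, and 0 in Hsf1-/- against wild type mice, beside 0.160%. In each comparison Tnc alone was at an unadjusted p below 0.05, beside 4.86% and 3.72% of all genes, with 1.07 ± 0.40 in R6/2 (adjusted p = 0.98) and 1.26 ± 0.40 in Hsf1-/- mice (adjusted p = 0.92). Both share the 4 wild type mice, in which Tnc was higher in the control than in the HS mice.

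The responses to HS and HSP990 differed for Tnc and Lum in wild type mice and for Eln in R6/2 mice. In wild type mice the HS response minus the HSP990 response was -1.78 ± 0.40 for Tnc (adjusted p = 0.024) and -1.34 ± 0.34 for Lum (adjusted p = 0.049), 2 of 10 called lower, beside 1.06% of all genes, and 0 called higher, beside 1.32%. Both of these genes had lower means after HS than in control mice and higher means after HSP990 than in vehicle mice. Nid2 (-1.11 ± 0.38, adjusted p = 0.16) and Sparc (-0.95 ± 0.37, adjusted p = 0.22) did not pass. The median over the 10 was -1.03, beside -0.02 over all genes. When 1 of the 8 mice was left out at a time, the estimates stayed at -1.98 to -1.60 for Tnc and -1.52 to -1.17 for Lum, but Tnc was called in 1 and Lum in 0 of the 8 fits. Lum was also lost with a replicate block (adjusted p = 0.063) and with RLE size factors (adjusted p = 0.052). The vehicle and the control mice both enter this difference. In wild type and R6/2 mice the HS and HSP990 experiments also differ in reads from Y-linked genes. Stress, experiment and sex therefore cannot be told apart in these differences.

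In R6/2 mice the HS response of Eln exceeded the HSP990 response by 2.60 ± 0.35 on the log2 scale (interval 1.85 to 3.34; adjusted p = 0.0014), 1 of 10 called higher and 0 called lower, beside 1.33% and 0.298% of all genes. It remained called without any 1 of the 8 mice (adjusted p = 0.00012 to 0.016), but not when only these 8 libraries were fitted (adjusted p = 0.053). Both untreated groups enter this difference, and they were not alike for Eln, with means of 19.3 CPM in control and 32.5 CPM in vehicle mice. The means after treatment were 30.0 CPM with HS and 8.36 CPM with HSP990. The other 9 transcripts gave estimates of at most 0.62 in size. In Hsf1-/- mice edgeR and DESeq2 called 0 of the 10, beside 0.145% of all genes by edgeR, and Eln alone was at an unadjusted p below 0.05, beside 10.9% (0.84 ± 0.35, adjusted p = 0.39).

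**Figure D4:**
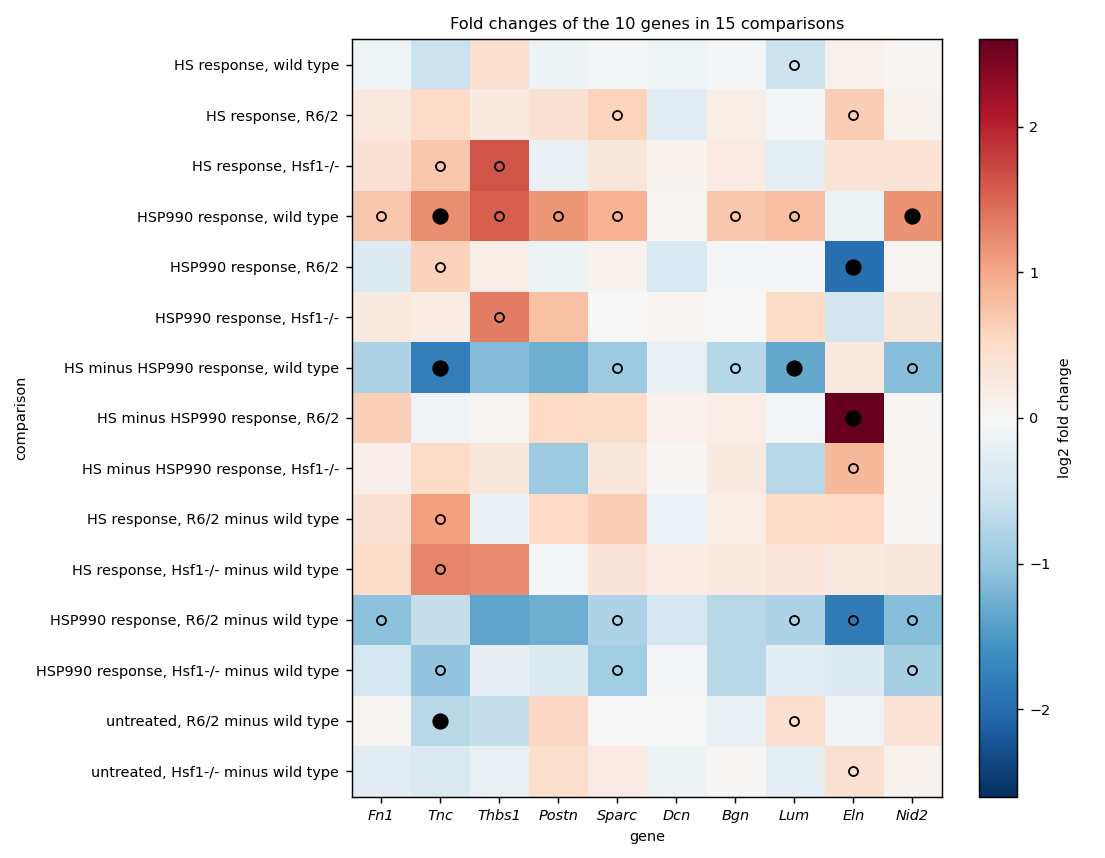
Log2 fold change (colour, red higher and blue lower) of the 10 genes (horizontal axis) in the 15 comparisons (vertical axis). Filled black circles mark the 7 of 150 results with an adjusted p below 0.05, which fall on Tnc, Nid2, Lum and Eln, and open circles mark those with an unadjusted p below 0.05 alone.

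Untreated R6/2 and wild type mice were compared with the mean of control and vehicle mice in each genotype. Tnc was lower in R6/2 mice, at 7.22 and 8.26 CPM in control and 5.30 and 5.27 CPM in vehicle mice, against 13.6 and 15.9 CPM and 6.58 and 8.34 CPM in the wild type groups. Each R6/2 group lay below the wild type group of the same experiment, and the log2 difference was -0.72 ± 0.20 (interval -1.14 to -0.29; adjusted p = 0.012). This was 1 of 10 called lower and 0 called higher, beside 15.4% and 15.1% of all genes tested, so that the share of the 10 was below the background. The difference was -0.93 in the control mice alone (adjusted p = 0.038) and -0.50 in the vehicle mice alone (adjusted p = 0.25). It was lost without replicate 2 of the wild type vehicle mice (adjusted p = 0.054).

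The estimate for Lum was higher in R6/2 mice without passing the test (0.44 ± 0.17, adjusted p = 0.059), and its values were not alike in the experiments. In control mice it was at 59.5 and 79.2 CPM in R6/2 and 79.2 and 67.4 CPM in wild type mice, which overlapped, with a log2 difference of -0.08. In vehicle mice it was at 76.5 and 82.5 against 45.8 and 35.9 CPM, a difference of 0.96 that was called there (adjusted p = 0.010). Dcn, Sparc, Fn1 and Eln had estimates between -0.09 and 0.08. Postn (0.54) and Nid2 (0.36) were higher and Thbs1 (-0.63) and Bgn (-0.18) lower without passing the test (adjusted p = 0.16 to 0.45).

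These values depend on the scaling more than any others. All 10 skeletal muscle fibre markers were called lower in untreated R6/2 mice, with a median of -1.87, and the share of reads on the 20 genes with the highest counts was 14.7% to 21.9% in R6/2 and 32.7% to 35.9% in wild type libraries. With library size alone, the median over all genes moved from 0.05 to 0.66, and Tnc was at -0.11 (adjusted p = 0.64). In that setting 8 of the other transcripts were called higher, beside 8454 of all 13754 genes tested. Relative to the median, Tnc was at -0.77 by TMM and -0.76 by library size. The smaller share of fibre transcripts and the level of Tnc in R6/2 muscle were not tested against each other. In the companion lists called genes were no more frequent than among all genes tested, of which 30.5% were called in either direction, apart from the TGF-beta list, which was close to it. Sdc4 (1.34 ± 0.18, adjusted p = 3.3e-05) rose, and Itga1 (-1.27 ± 0.22, adjusted p = 0.00036), a collagen-binding integrin, and Ccn5 (-1.19 ± 0.27, adjusted p = 0.0028) fell. By list, 2 of 11 basement membrane genes, 3 of 16 elastic fibre genes, 2 of 20 glycoprotein and matricellular genes, 0 of 9 small leucine-rich proteoglycan genes (2 at an unadjusted p below 0.05) and 4 of 21 receptor genes and 4 of 13 TGF-beta genes were called.

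Between untreated Hsf1-/- and wild type mice 0 of the 10 were called by edgeR and 0 by DESeq2, beside 0.974% of all genes by edgeR. Eln alone was at an unadjusted p below 0.05, beside 14.5% of all genes (0.40 ± 0.17, adjusted p = 0.31), with 41.3 and 43.1 CPM in the Hsf1-/- vehicle mice against 21.4 and 26.9 CPM in the wild type vehicle mice, while the control mice overlapped. In control mice alone Tnc was called lower, by -1.21 (adjusted p = 0.041), with 5.65 and 7.09 CPM against 13.6 and 15.9 CPM in wild type mice. In the vehicle mice Tnc stood the other way, at 12.0 and 8.84 CPM in Hsf1-/- against 6.58 and 8.34 CPM in wild type mice, so the sign was not the same in the experiments. The wild type control mice had 0 Y-linked counts and the Hsf1-/- control mice 4864 to 5365, so that sex and genotype cannot be told apart in the control mice, while mice of both genotypes in the vehicle groups held such counts.

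Across the 12 groups the order of levels differed by gene. For Tnc the lowest group was R6/2 vehicle (5.28 ± 0.02 CPM, SD, n = 2) and the highest wild type HSP990 (17.3 ± 1.31), next to wild type control (14.8 ± 1.61). From the third to the tenth rank of Tnc each group overlapped the one below it. For Eln the lowest was R6/2 HSP990 (8.36 ± 1.11 CPM), separate from the next, R6/2 control (19.3 ± 0.950). The highest was Hsf1-/- vehicle (42.2 ± 1.27), separate from the next by mean, Hsf1-/- HS (37.8 ± 1.81). However, 1 R6/2 vehicle mouse, at 41.4 CPM, lay within the range of the Hsf1-/- vehicle mice. Neighbours from the third to the eleventh rank of Eln overlapped. Averaged over the 10 genes after each was standardised over the 12 group means, wild type vehicle stood lowest (-1.03 SD, 0 of 10 genes above their own mean) and wild type HSP990 highest (1.29 SD, 9 of 10 above). Bgn and Fn1 followed this average profile most closely (root mean square difference 0.519 and 0.556 SD), and Eln and Lum least (0.991 and 0.940 SD). Each of the 10 enters the average itself and other genes do not, so the distances of the 2 kinds are not comparable. Among 11109 other genes with a mean of at least 1 CPM, the closest were Col6a1 (0.446 SD), Col5a2 (0.496), Loxl2 (0.539), Lhfp (0.556) and Cx3cl1 (0.566), over 12 groups. Col6a1 and Col5a2 encode collagen chains and Loxl2 an enzyme that cross-links collagen and elastin.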

How the data were processed

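Quadriceps RNA of 24 mice was sequenced by the authors as strand-specific, polyA-selected paired reads, mapped to mm9 with Bowtie, and deposited as raw counts per gene without normalization. The counting program and annotation are not given in the sources used here. A gene was tested where 10 or more libraries held 2 or more of its counts. Counts were scaled with TMM and fitted as 12 groups with edgeR 4.0.16 (limma 3.58.1, R 4.3.3), using the quasi-likelihood F test (12 residual degrees of freedom) and Benjamini-Hochberg adjustment over 13754 genes in each of 15 comparisons. The study's methods name DESeq2, and DESeq2 1.42.0 was an alternative here, beside scaling by RLE or by library size only, testing without the filter, fitting only the groups compared, a replicate block, control or vehicle mice alone, and leaving out each mouse. The procedure was tested on simulated data. Values are means ± SD or estimates ± SE. The p-values test a difference against the spread between mice within groups, estimated over all 12 groups unless stated otherwise. Gene symbols were matched by gene number, and mm9 coordinates and exon lengths from GENCODE vM1 by symbol or synonym. List genes were matched by symbol or synonym, and 165 of 170 were found.

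The 10 genes and all lists were chosen with earlier results of these data known. The genes named are the 10, up to 3 called genes of a companion list per comparison, markers beside a result, Hsf1, Hspa1a and the 5 closest profiles. Y-linked, Apol7d, 8030451A03Rik and Rtraf values, and the comparison of vehicle with control mice, were added after values had been seen. A few called companion genes are not reported here.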

Additional observations from a re-analysis of the deposited data

Results flagged for a closer look

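Differences between the responses to HS and to HSP990 within a genotype passed the test of the difference itself for 3 results. In wild type mice the HS response minus the HSP990 response was -1.78 on the log2 scale for Tnc (edgeR adjusted p = 0.024) and -1.34 for Lum (adjusted p = 0.049). In R6/2 mice it was 2.60 for Eln (adjusted p = 0.0014). In both genotypes the HS and HSP990 experiments also differ in reads from Y-linked genes, so that stress and sex cannot be told apart. With 2 mice per group, no group was large enough to look for a mouse that stood apart by itself.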

How the results depend on the processing

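The number of the 10 transcripts called changed in several comparisons. For HSP990 in wild type mice it was 2, but 5 with DESeq2, 4 with only the groups compared, 1 with a replicate block and 0 to 0 with a mouse left out. For HS minus HSP990 in wild type mice it was 2, but 5 with only the groups compared, 1 with RLE size factors, 1 with a replicate block and 0 to 1 with a mouse left out. In R6/2 mice Eln gave 1 call for HSP990 and 1 for HS minus HSP990, and 0 in each with only the groups compared. For the HSP990 response of R6/2 minus wild type mice it was 0, but 1 with DESeq2 and 0 to 1 with a mouse left out. For HS in Hsf1-/- mice it was 0, but 1 with DESeq2. Untreated R6/2 minus wild type mice gave 1, but 8 with library size only, 2 with DESeq2, 2 with only the groups compared and 0 to 3 with a mouse left out (0 without wild type vehicle replicate 2 and 3 without R6/2 control replicate 1). Untreated Hsf1-/- minus wild type mice gave 0, but 1 in control mice alone. The estimate of Lum in untreated R6/2 mice (0.44) turned to -0.080 in control mice alone. No filter changed no count. Of the 36 results of single genes at an unadjusted p below 0.05 in the main fit, no other one changed direction. Results outside these 36 did, such as Tnc in untreated Hsf1-/- minus wild type mice (-1.21 in control and 0.48 in vehicle mice). Apart from untreated R6/2 mice, library size only moved the median over all genes by at most 0.19. In untreated R6/2 minus wild type mice it called 8454 of 13754 genes higher and 421 lower, and DESeq2 called 2191 and 2295. For HSP990, DESeq2 called 399 higher and 143 lower in wild type mice, and 7 and 42 in R6/2 minus wild type mice. For HS in Hsf1-/- mice it called 126 and 35. Numbers over all genes for the other alternative settings are not given here. The causes were not tested.

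Replicate numbers did not pair the mice: the deviations of same-numbered mice correlated over genes at -0.20 to 0.24 between compared groups. The replicate block removed 2 calls of single genes, Tnc for HSP990 and Lum for HS minus HSP990 in wild type mice, and no other.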
